A study of Mus musculus with 3 samples.

Results

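The Slitrk and Lrrtm genes encode transmembrane adhesion proteins of neurons whose extracellular parts are built of leucine-rich repeats. They were described across cultured dorsal root ganglion cells in 3 media. The 10 members are the genes with the symbols Slitrk1 to Slitrk6 and Lrrtm1 to Lrrtm4, out of 30142 genes named by an array probe set with a single symbol, and each member has 1 probe set. Slitrk6 was chosen by its intensities, which were higher in both arrays with SEMA3E than in control medium, so its differences from control medium are a description and carry no test. The RNA came from primary sensory neurons of the dorsal root ganglia of male mice of the outbred ICR strain, aged 8 to 10 weeks, kept for 72 hours in 1 of 3 media. The first medium held DMEM, the B27 supplement, 1 μg/ml of recombinant SEMA3E and 1 μg/ml of an IgG that blocks SEMA3E, the second DMEM, B27 and 1 μg/ml of SEMA3E, and the third, the control medium, DMEM and B27 alone. SEMA3E is a secreted guidance protein. Each medium has 1 array, so no difference here has a replicate check, an error or a p-value, and precision is limited by that number of arrays. No array had an IgG without SEMA3E or an IgG that does not block it. Whether fewer cells of a type or less RNA per cell lies behind a lower value cannot be told apart in such bulk RNA.

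Slitrk proteins sit mostly on the receiving side of a synapse and bind receptor tyrosine phosphatases of the LAR type (PTPRD, PTPRS) on the axon side, which assembles the release machinery there. Lrrtm proteins do the same through neurexins, and LRRTM4 also through heparan sulfate proteoglycans. The name Slitrk comes from a likeness to the Slit guidance proteins outside the cell and to the Trk neurotrophin receptors inside it. In mice, Slitrk6 is known from the inner ear, where its loss reduces the innervation of the sensory epithelia by neurons of the ear's own sensory ganglia, and in people its loss causes deafness with myopia.

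The members Slitrk1, Slitrk6 and Slitrk5, lie next to each other on chromosome 14 with no other protein-coding gene between them in the RefSeq table (GRCm38.p6). The windows around their annotated starts are shown because the middle gene differed between the media while both flanking relatives held 1 value in every array. Slitrk6 was picked for its difference, and 74.9% of all genes above the floor held 1 value too. The windows are therefore a description and not a contrast of a changed gene with unchanged ones. Each window runs from 250 bases before the start to 50 after it (300 bases, RefSeq, GRCm38.p6), read 5′ to 3′ on the gene's strand. The windows are chr14:110755100-110755399 (minus strand) for Slitrk6, chr14:108914190-108914489 (minus strand) for Slitrk1 and chr14:111675777-111676076 (plus strand) for Slitrk5. Capitals mark matches on either strand to 7 motifs. Those of the core promoter were TATAAA, called the TATA box, and GGGCGG, called the GC box. The others were CACGTG, the E-box read by basic helix-loop-helix factors, TGACGTCA, the cyclic AMP response element or CRE, and TGACTCA, the AP-1 element read by Fos and Jun proteins. The search was completed by TGTTTAC, read by forkhead factors, and TAATTA, read by homeodomain factors.
Slitrk6: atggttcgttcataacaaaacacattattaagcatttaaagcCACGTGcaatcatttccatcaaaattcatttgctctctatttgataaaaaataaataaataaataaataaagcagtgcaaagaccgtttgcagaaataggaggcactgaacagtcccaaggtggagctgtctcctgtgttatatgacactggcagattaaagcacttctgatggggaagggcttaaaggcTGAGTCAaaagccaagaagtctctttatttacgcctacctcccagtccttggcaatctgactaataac
Slitrk1: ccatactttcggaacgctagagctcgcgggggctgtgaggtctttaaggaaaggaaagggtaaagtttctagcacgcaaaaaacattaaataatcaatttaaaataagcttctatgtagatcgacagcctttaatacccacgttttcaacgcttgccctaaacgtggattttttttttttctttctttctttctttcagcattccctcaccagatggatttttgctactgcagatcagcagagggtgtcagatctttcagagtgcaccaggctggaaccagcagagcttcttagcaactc
Slitrk5: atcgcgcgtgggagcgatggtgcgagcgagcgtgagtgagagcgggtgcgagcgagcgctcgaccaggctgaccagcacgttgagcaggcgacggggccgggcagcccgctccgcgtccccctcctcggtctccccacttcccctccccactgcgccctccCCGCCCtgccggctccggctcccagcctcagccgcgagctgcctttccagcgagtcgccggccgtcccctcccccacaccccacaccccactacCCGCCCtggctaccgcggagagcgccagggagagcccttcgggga

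The Slitrk6 window was poor in G and C, at 38.3%, against 42.3% for Slitrk1 and 74.3% for Slitrk5. It held 4 CpG dinucleotides, Slitrk1 held 9 and Slitrk5 35. Among 32851 windows of this length in the table the median was 52.7% G and C and 7 CpG. Slitrk6 matched the E-box from position −208 and, on the reverse strand, the AP-1 element from position −18, counted from the start at 1 with no 0. An E-box was present in 7.15% and an AP-1 element in 5.20% of all windows. The Slitrk5 window held 2 matches to the GC box, which 35.7% of all windows contain, and the Slitrk1 window held no match. None of the matches in these 3 windows overlapped another. Windows were found for 8 of the 10 members, 10 windows in all, since Slitrk2 and Lrrtm4 each have 2. In these, Lrrtm1 and the second Slitrk2 window each held a GC box, the same Slitrk2 window held a CRE (in 1.79% of all windows), and the first Lrrtm4 window held 2 TATA boxes (in 13.6%). A match is a string of letters in the window and was not tested as a site that any factor uses.

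**Figure D1:**
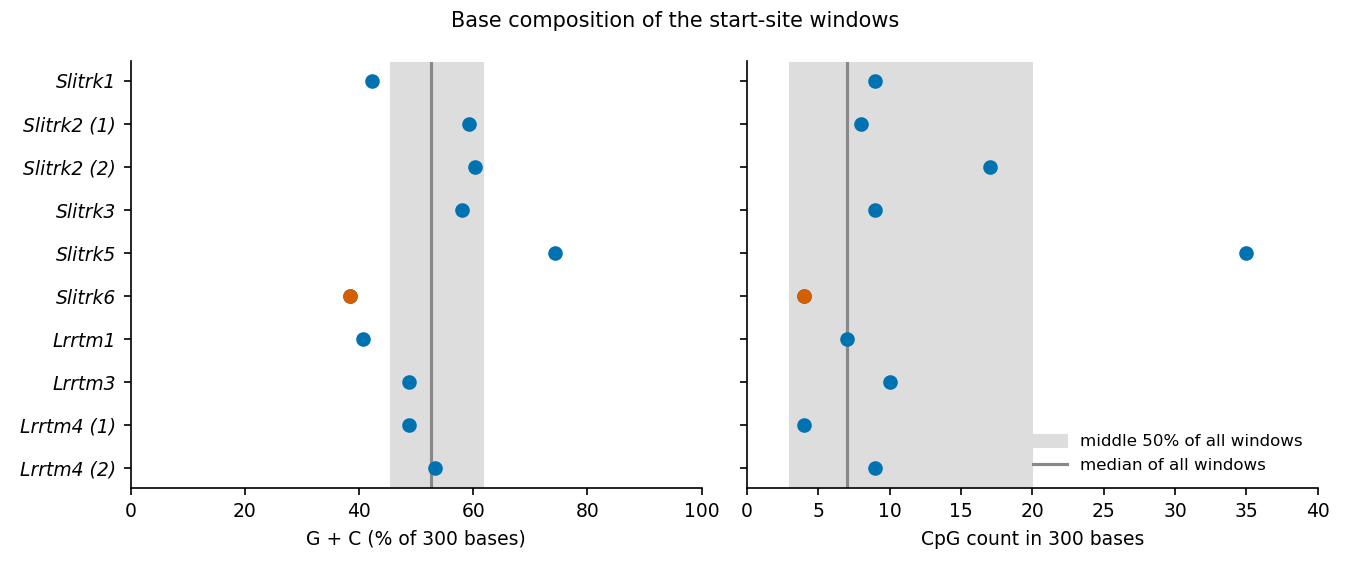
G and C content (left, percent of 300 bases) and CpG count (right) of the start windows of 8 members, with (1) and (2) for genes with 2 windows; the orange point is Slitrk6, the grey band the middle 50% of all 32851 windows and the grey line their median. Slitrk6 has the lowest G and C content of the 10 windows (38.3%) and Slitrk5 the highest (74.3%).

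All 10 members had values above the background floor of 43.7 intensity units in every array. The floor is the 95th percentile of 492 vomeronasal receptor genes, which are taken as unexpressed in this tissue. Lrrtm1 lay closest to it, at 50.3 units. The deposited values are intensities on a linear scale, and differences are given as log2(value + 1). Probe sets differ in how brightly they read the same amount of RNA, so the levels of different members were not ranked.

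Slitrk6 had 698 units with SEMA3E and IgG and 704 units with SEMA3E, against 478 units in control medium. Both arrays with SEMA3E stood above the control array and lay close to each other. The log2 difference was 0.56 for SEMA3E against control, a ratio of 1.47, and 0.54 for SEMA3E with IgG against control, a ratio of 1.46. SEMA3E with IgG differed from SEMA3E alone by −0.012 on the log2 scale, a ratio of 0.991. The Slitrk6 value in the presence of the blocking IgG therefore lay 219 units above control, and with SEMA3E alone 225 units above it. The comparisons with control share the control array, so a deviation of that single array would appear in both.

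**Figure D2:**
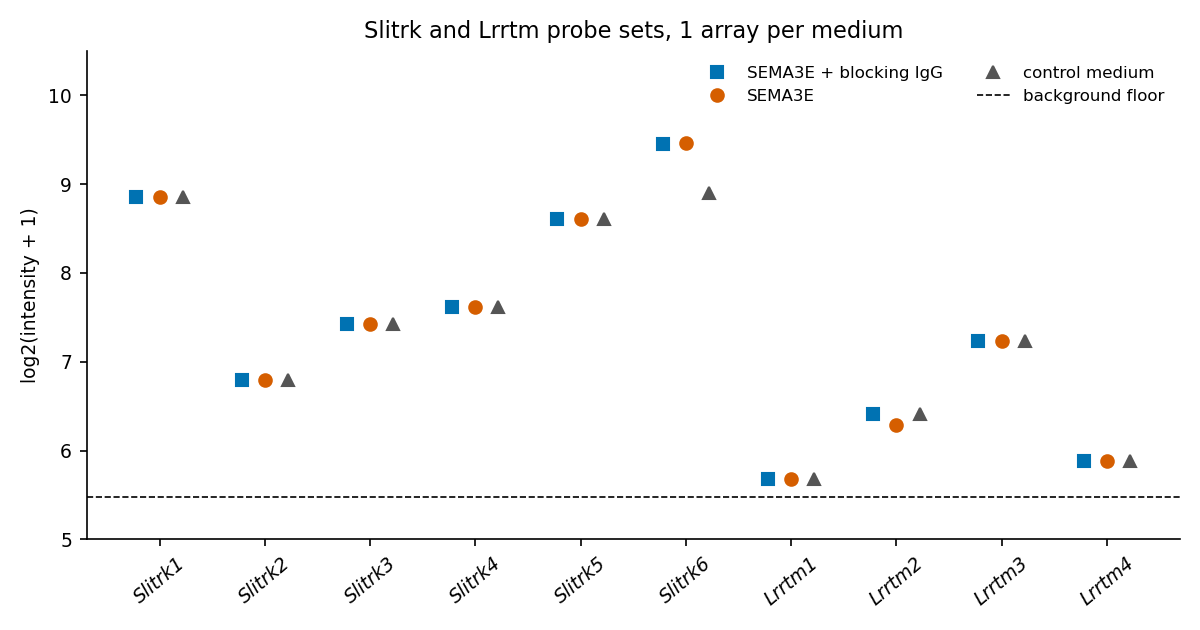
Level of each member as log2(intensity + 1) in the array of SEMA3E with blocking IgG (squares), SEMA3E (circles) and control medium (triangles), 1 array each; the dashed line is the background floor at 5.48. Slitrk6 is higher in both arrays with SEMA3E (9.45 and 9.46) than in control medium (8.90), Lrrtm2 is lower in the SEMA3E array (6.29) than in the other arrays (6.42), and the remaining 8 genes are at 1 level.

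The other Slitrk genes held the same deposited value in all 3 arrays. Slitrk1, a neurite and synapse regulator that has been studied in Tourette syndrome in people, had 460.3 units in each array. Slitrk5, which in mice acts on the recycling of the BDNF receptor TrkB, had 389 units in each. Slitrk3, which induces inhibitory synapses through PTPRD, had 171 units in each. The X-linked Slitrk2 and Slitrk4 had 110.5 and 196 units in each array. Why so many genes hold exactly equal values is not stated in the sources used here, so an identical value is a property of the deposited table and is not read as equal RNA. Of all 17653 genes above the floor, 74.9% held 1 value in all 3 arrays, and so did 5 of the 6 Slitrk genes.

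Of the Lrrtm genes, Lrrtm2 alone differed between arrays. It had 84.3 units with SEMA3E and IgG and 77.3 units with SEMA3E, against 84.3 units in control medium. The SEMA3E array was thus the low one, by −0.12 on the log2 scale against control, and the array with IgG held the control value exactly (0.12 above SEMA3E alone). Lrrtm2 encodes a neurexin ligand of excitatory synapses. Its relative Lrrtm1, another neurexin ligand, had 50.3 units in each array. Lrrtm3 had 149.9 units in each, and Lrrtm4, whose protein also binds glypicans, had 58.1 units in each.

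At a threshold ratio of 5 to 4, 1 of the 10 members was higher with SEMA3E than in control medium and 0 were lower. Of all 17653 genes, 0.334% were higher and 0.397% lower at that threshold. With SEMA3E and IgG against SEMA3E alone, 0 of 10 were higher and 0 lower, where 0.476% and 0.306% of all genes were. With SEMA3E and IgG against control medium, 1 of 10 was higher and 0 lower, where 0.340% and 0.544% of all genes were. The called member is Slitrk6 both times, which was chosen for this, so nothing is read from these counts. Counting any difference in value, Slitrk6 was higher and Lrrtm2 lower with SEMA3E than in control medium (6.21% and 12.3% of all genes were). With SEMA3E and IgG, Lrrtm2 was higher and Slitrk6 lower than with SEMA3E alone (10.2% and 10.3% of all genes). Against control medium, Slitrk6 was higher with SEMA3E and IgG and 0 members were lower (7.59% and 11.4% of all genes). The median difference was 0 for the 6 Slitrk genes, for the 4 Lrrtm genes and for all genes in each comparison.

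The Slitrk6 difference from control medium was among the highest of the genes above the floor, and probe sets without a single symbol were not ranked. Slitrk6 was picked for being higher in both arrays with SEMA3E, so its ranks are a description only. Of the 17653 genes, 16, itself included, were at least as high in SEMA3E against control, and 13 in SEMA3E with IgG against control. Including Slitrk6, 7 genes were at least that high in both. The other 6, named after their values were seen, were Eid3, which encodes an EP300-binding protein of the EID family (log2 differences of 0.98 with SEMA3E and IgG and 0.77 with SEMA3E), the predicted gene Gm22935 and the microRNA genes Mir181b-2, Mir467f, Mir691 and Mir6920. Mir6920 lay near the floor in control medium, at 45.7 units. Mir467f has 2 probe sets, of which only the brighter was read.

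No chromosomal neighbour of Slitrk6 read here had a difference of its size. Slitrk1 on one side and Slitrk5 on the other were identical in all 3 arrays, as were the glypican genes Gpc6, at 302 units, and Gpc5, which lay below the floor at 38.4 units. Since 74.9% of all genes above the floor were identical too, this is not read as unchanged RNA. Trim52, the gene beyond Slitrk1, had 76.0 units with SEMA3E and IgG and 75.7 units with SEMA3E, against 74.7 units in control medium. Its log2 differences from control, 0.025 and 0.019, were small and in the direction of those of Slitrk6. Lrrtm1, Lrrtm2 and Lrrtm3 lie within the spans of the alpha-catenin genes Ctnna2, Ctnna1 and Ctnna3, which encode cytoplasmic linkers between cadherins and actin. Ctnna1, the gene around Lrrtm2, had 807 units in every array, Ctnna2 had 466 units in every array, and Ctnna3 lay below the floor at 23.1 units.

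Genes that bind or accompany these proteins were read from lists as well. The 10 lists drawn up from general knowledge held 110 distinct genes, 106 of them measured and 87 above the floor. At a ratio of 5 to 4, 0 of the 87 were higher or lower in any of the 3 comparisons. Between 0.306% and 0.544% of all genes were, per comparison and direction, so a count of 0 is near the background for a list of this size. Counting any difference, 1 was higher and 11 lower with SEMA3E than in control medium (13.8%, against 18.6% of all genes). With SEMA3E and IgG against SEMA3E, 8 were higher and 2 lower (11.5%, against 20.5%). With SEMA3E and IgG against control, 1 was higher and 6 lower (8.05%, against 19.0%). The median was 0 each time.

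Among the presynaptic receptors, 5 were above the floor. Of all genes above it, 74.9% were identical in all 3 arrays, and so were 3 of these 5. Ptprd, the partner of SLITRK3, was one of these with 68.9 units, and the neurexin genes Nrxn2 and Nrxn3 had 111 and 314 units. Ptprf, which encodes LAR itself, had 539 units with SEMA3E and IgG and 507 units with SEMA3E, against 539 units in control medium. Ptprs, a receptor of SLITRK1 and SLITRK2, had 614 units with SEMA3E and IgG and 608 units with SEMA3E, against 614 units in control medium. Both phosphatase genes were thus low in the SEMA3E array alone, by −0.09 and −0.02 on the log2 scale, the same arrangement as Lrrtm2. It is not particular to these genes: Ngfr, Sdc4, Nlgn2, Ntrk3 and the cell markers Avil and Cd68 had it too. Of all genes, 12.3% were lower with SEMA3E than in control medium, whatever their value with the IgG. The share of all genes with the exact arrangement was not counted. That arrangement rests on the SEMA3E array, and no replicate of it exists.

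Of 8 heparan sulfate proteoglycan genes above the floor, 6 were identical in all arrays, against 74.9% of all genes above it. Gpc4, which encodes a glypican that LRRTM4 binds, had 1435 units with SEMA3E and IgG and 1662 units with SEMA3E, against 1662 units in control medium. It was lower with the IgG by −0.21 on the log2 scale, but its second probe set held 123 units in every array. The syndecan gene Sdc4 was lower with SEMA3E than in control medium, by −0.04 on the log2 scale, and identical to control with the IgG.

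Other ligands of the LAR-type phosphatases included the largest difference among the 87 genes. Lrfn5, which encodes the synaptic adhesion protein SALM5, had 338 units with SEMA3E and IgG and 374 units with SEMA3E, against 419 units in control medium. Each addition went with a lower value, at log2 differences of −0.31 for SEMA3E with IgG and −0.17 for SEMA3E against control, both short of a ratio of 5 to 4 (0.32 on the log2 scale). Of the 7 genes of this list above the floor, 4 were identical in all arrays, against 74.9% of all genes above it. Lrfn2 was lower in both arrays with SEMA3E than in control medium, by −0.02 on the log2 scale. Ntrk3, which encodes the neurotrophin receptor TrkC, had 271 units with SEMA3E and IgG and 265 units with SEMA3E, against 271 units in control medium.

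In the remaining lists Ngfr differed most, by 0.13 on the log2 scale. In the Trk list, Ntrk2 was identical and Ngfr, the p75 neurotrophin receptor, had 952 units with SEMA3E and IgG and 868 units with SEMA3E, against 952 units in control medium (a log2 difference of −0.13 for SEMA3E against control). Of 11 postsynaptic scaffold genes, Shank2 differed, with 106 units with SEMA3E and IgG and 102 units with SEMA3E, against 99.0 units in control medium. Of 8 Slit and Robo genes, Slit1 differed, by −0.05 on the log2 scale with SEMA3E and −0.03 with SEMA3E and IgG against control. Of 9 other neurexin ligands, the neuroligin gene Nlgn2 differed, by −0.01 with SEMA3E against control. Among 25 other leucine-rich repeat genes of neurons, 23 were identical, among them Lrrn3 at 286 units, and Rtn4rl1, a relative of the Nogo receptor, and Lgi1, which encodes a secreted synaptic protein, were lower by −0.06 and −0.01 in both arrays with SEMA3E. All 10 latrophilin, teneurin and UNC5 genes above the floor and both alpha-catenin genes above it were identical. Since 74.9% of all genes above the floor were identical in all 3 arrays too, these counts are not read as stable RNA.

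**Figure D3:**
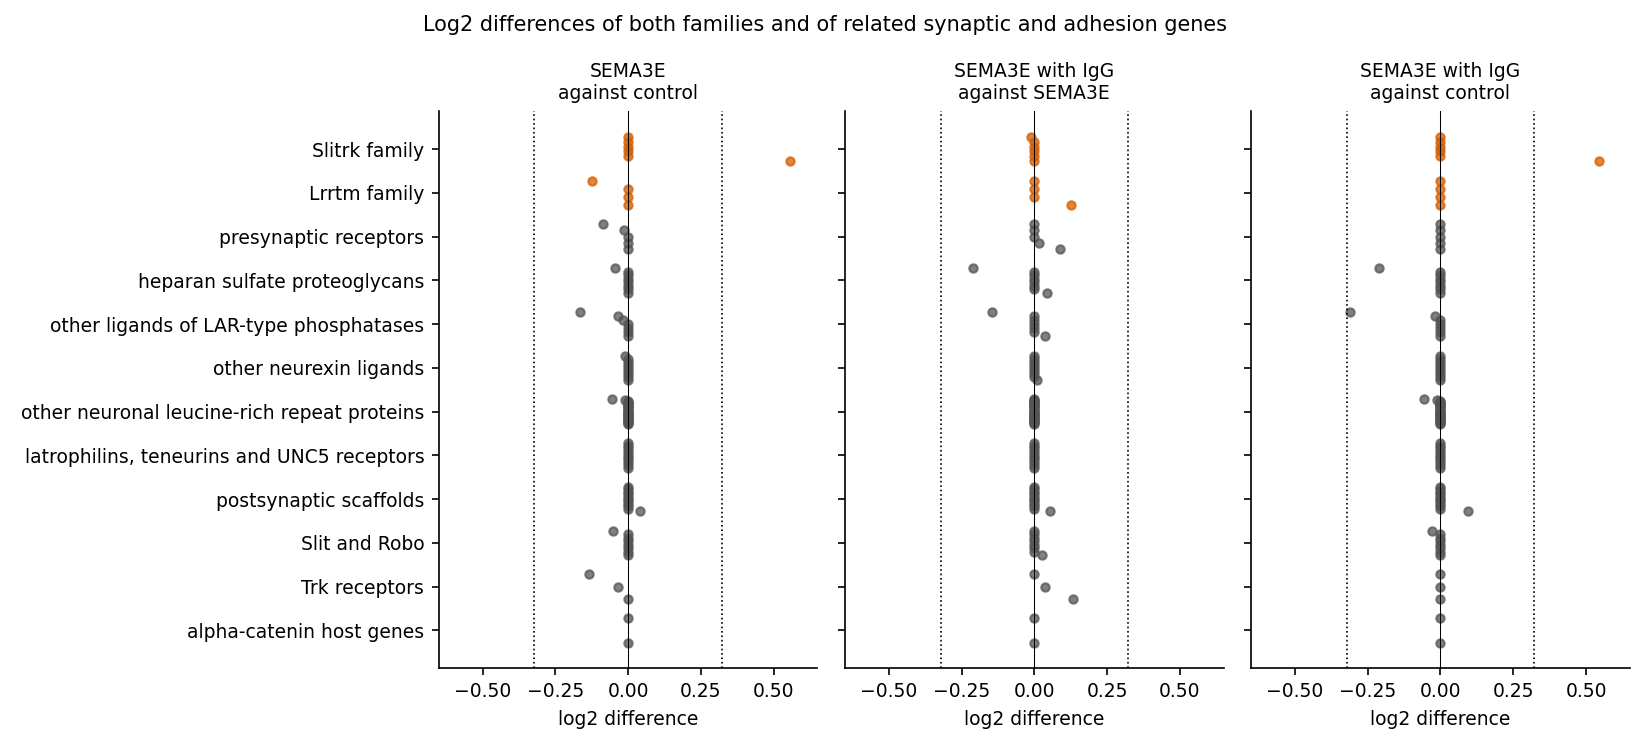
Log2 difference of each gene above the floor (points) in the Slitrk and Lrrtm families (orange) and 10 lists of related genes (grey) for the 3 comparisons, 1 array per medium; dotted lines mark a ratio of 5 to 4 either way. Slitrk6 is the single point beyond the dotted lines, at 0.56 (left panel) and 0.54 (right panel), and Lrfn5 at −0.31 comes closest among the grey points.

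The 6 genes whose pair of differences from control lay nearest to that of Slitrk6 over the 3 arrays were Gsta4, Cbl, S100a8, Ptgs2, Clec4d and Defb39, out of 11949 genes searched. Nearness was the Euclidean distance between the log2 differences of SEMA3E and of SEMA3E with IgG against control. Gsta4, a glutathione transferase gene, was nearest at 0.09, with 3390 units with SEMA3E and IgG and 3447 units with SEMA3E, against 2445 units in control medium. The others lay at 0.26 (Cbl), 0.27 (S100a8), 0.28 (Ptgs2), 0.28 (Clec4d) and 0.29 (Defb39). Clec4d, a lectin gene of myeloid cells, had 133 units in both arrays with SEMA3E, against 104 units in control medium. A second probe set of Cbl, which encodes a ubiquitin ligase, held 5834 units in every array, and Defb39, a defensin gene, was below the floor in control medium at 37.3 units. With 3 arrays a pattern has only 2 differences, so nearness in them is a weak description.

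**Figure D4:**
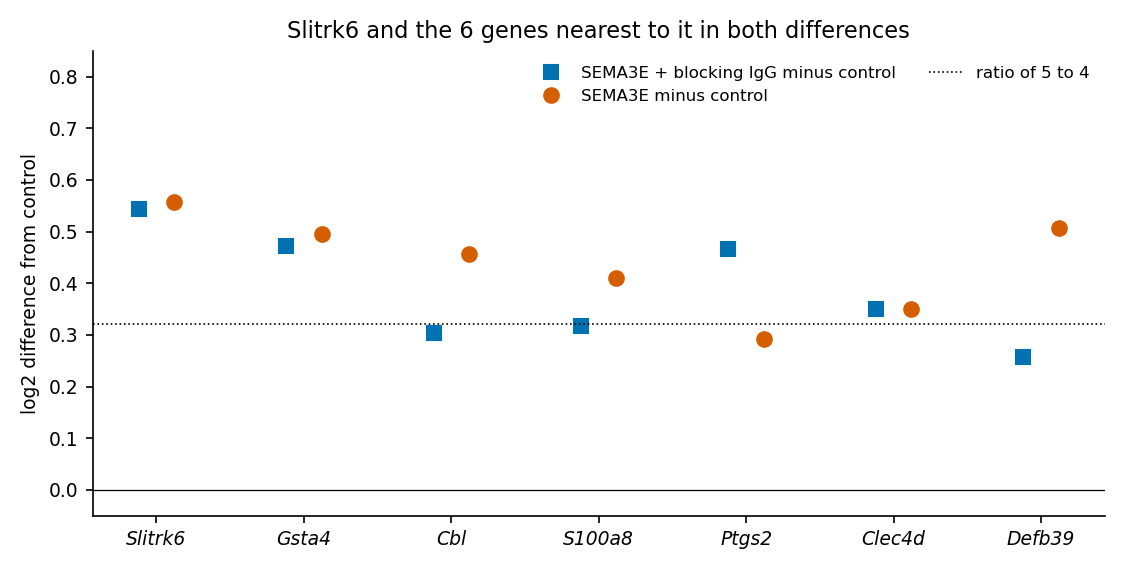
Log2 difference from control medium for SEMA3E with blocking IgG (squares) and SEMA3E (circles) in Slitrk6 and the 6 genes nearest to it, 1 array per medium; the dotted line marks a ratio of 5 to 4. Gsta4 lies nearest to Slitrk6 (0.47 and 0.50, against 0.54 and 0.56), and Clec4d alone among the 6 has equal values in both media with SEMA3E, whose difference from each other is largest in Defb39 (−0.25), Ptgs2 (0.17) and Cbl (−0.15).

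Markers of the cultured cells were read beside these values. All 14 neuronal markers lay above the floor, and their summed intensity was 427377 units with SEMA3E and IgG and 429358 with SEMA3E, against 435337 in control medium. Tubb3, the neuronal beta-tubulin, differed most of the 14 from control medium, with 11305 units in both arrays with SEMA3E, against 12589. With SEMA3E against control, 8 of the 14 were lower and 6 identical, where 12.3% of all genes were lower. With SEMA3E and IgG against control, 8 were lower, 1 higher (Map2) and 5 identical, where 11.4% of all genes were lower and 7.59% higher. At a ratio of 5 to 4, 0 of the 14 were higher or lower in either comparison. Satellite glial, Schwann cell, fibroblast, macrophage and endothelial or mural markers were present too, with 8 of 8, 6 of 8, 9 of 9, 6 of 10 and 9 of 10 measured markers above the floor. Summed macrophage markers were higher with SEMA3E, at 4249 units with SEMA3E and IgG and 4335 with SEMA3E, against 4078 in control medium. Lyz2 carried this: the other 9 macrophage markers, a sum taken after the data were seen, came to 1901 and 1855 units, against 1907 in control medium. Also higher were endothelial and mural markers, at 14589.6 and 14597 units, against 13780.5 in control medium, through Tagln, a smooth muscle actin-binding protein gene (5679 and 5687 units, against 4863), without which the other 9 came to 8910.2 units in both arrays with SEMA3E, against 8918 in control medium. Schwann cell markers summed to 141950 and 141781 units, against 142461 in control medium, satellite glial markers to 14772 and 15199 units, against 15362, and fibroblast markers to 63227 and 61163 units, against 61146. Bright genes weigh most in such sums. Pmp22 had 130696 units and the neuronal marker Uchl1 205992 units in every array. Postn had 44892 units with SEMA3E and IgG, against 42779 in each other array. The Schwann cell, fibroblast and neuronal sums therefore say little about the dimmer markers. Single markers beyond a ratio of 5 to 4 in some comparison were Kcnj10, a potassium channel gene of satellite glia (273 units with SEMA3E and IgG and 337 with SEMA3E, against 399 in control medium), the myelin gene Pmp2 (3958 and 4744 units, against 5868), the Schwann cell gene Gldn (6403 and 5448 units, against 5004) and the fibroblast gene Ogn (861 and 1034 units, against 1536). In the other marker lists the genes furthest apart beside Tubb3 and Tagln were the synaptic vesicle gene Syp (173 units in both arrays with SEMA3E, against 188), the lysozyme gene Lyz2 (2348 and 2480 units, against 2171), Cd68 (1087 and 1031 units, against 1087) and the endothelial junction gene Cldn5 (63.4 units in both arrays with SEMA3E, against 71.1). The part of the cell mixture in the Slitrk6 difference was not tested.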

How the data were processed

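RNA from 3 cultures was hybridised to 1 array each, after labelling with the GeneChip WT Pico kit per the labels' protocols. The deposited values are probe set intensities on a linear scale, which the authors summarised with Affymetrix Expression Console, as the submitters' processing notes say; the sources used here give no version, normalization method or genome build. From them, log2(value + 1) was computed. Of 65956 probe sets, 30604 have 1 distinct symbol, 2146 several and 33206 none; 827 symbols were updated by gene number with a RefSeq table (GRCm38.p6). The brightest probe set per gene was kept, and 17653 of 30142 genes had a mean at or above the floor. With 1 array per medium no test was possible; differences of at least a ratio of 5 to 4 were counted, over all genes as well.

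Members, lists, motifs and thresholds were chosen with earlier results of these data known. All 10 members were named, and in each list the genes at least that far apart, otherwise the 2 furthest apart, with further identical genes as examples. Genes like Slitrk6 exclude predicted, RIKEN, microRNA and other noncoding, receptor-repertoire and pseudogene symbols. The calculation of differences was run on simulated shifts, which checks its arithmetic and says nothing about noise or the floor. Python 3.11.15, numpy 2.4.6, pandas 2.3.3, statsmodels 0.14.6 and matplotlib 3.10.9 were used. The alternatives tried were other scalings, an offset of 16, values set to the floor, another fold and other floors.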

Additional observations from a re-analysis of the deposited data

How the results depend on the processing

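Over centring, loess, quantile normalization, an offset of 16 and values set to the floor, all 150 recomputed member differences stayed within 0.1 (log2) of the reported value. Most of them belong to the 8 members with identical values, which these settings could hardly move. Setting values to the floor could change no member, since all 10 lay above it in every array. The count of 150 therefore says little about robustness. Slitrk6 ranged from 0.54 to 0.56 for SEMA3E against control and from 0.53 to 0.55 for SEMA3E with IgG against control, and Lrrtm2 from −0.13 to −0.11 for SEMA3E against control. Median differences over all genes stayed between −0.0038 and 0.0062 under these settings. Such scalings had little room to move Slitrk6 or Lrrtm2, so their narrow ranges say little about robustness either. The 8 members with identical values lay between −0.0087 and 0.0062. At 1.5-fold in place of a ratio of 5 to 4, 0 members were higher in SEMA3E or in SEMA3E with IgG against control. The counts over all genes at 1.5-fold were 13 higher and 17 lower (SEMA3E against control, from 59 and 70 at 5 to 4), 14 higher and 10 lower (SEMA3E with IgG against SEMA3E, from 84 and 54) and 11 higher and 25 lower (SEMA3E with IgG against control, from 60 and 96). After loess, 113 genes were higher in SEMA3E against control and 99 lower in SEMA3E with IgG against SEMA3E; the cause was not tested. All 10 members lay above either alternative floor. Of the 6 genes nearest to Slitrk6, 5 were shared when the largest gap replaced the distance. Other probe sets of the members were not run, since each has 1. No paired analysis was possible because each medium has 1 array. Dim members such as Lrrtm1 and Lrrtm4 lie near the floor, where small differences are hard to detect.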
